A study of Mus musculus with 4 samples.

Results

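Genes of the B cell receptor signalling machinery were followed in splenocytes, the mixed cells of a whole spleen, from vcS5 transgenic and wild-type C57BL/6N mice. The 9 genes were taken by symbol from the deposited expression table, and they occupied 11 of its 14226 rows because Lyn and Btk each had 2 rows. The vcS5 mice had the genotype vcS5 +/T, contributed 2 libraries whose labels name a single transgenic line, and belong to a study of an activating STAT5 mutation in peripheral T cell lymphoma. The other 2 libraries came from wild-type mice of the same strain. Neither the promoter that drives the transgene nor the age of the mice is given in the sources used here. For its p-values limma combined the spread between the 2 samples of each group with a variance trend over all rows. The labels number these samples as replicates without saying that each is a separate mouse.

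The B cell receptor is a membrane immunoglobulin bound to a pair of signalling chains, CD79A and CD79B. When antigen clusters the receptor, Src family kinases such as LYN and BLK phosphorylate a tyrosine motif (ITAM) in the tails of these chains, SYK docks on the phosphorylated motif, and the adaptor BLNK then brings BTK to phospholipase C gamma 2. CD22 and CD72 work the other way: their tails carry inhibitory tyrosine motifs (ITIMs) that recruit the phosphatase SHP-1. In the spleen the receptor chains mark B cells, whereas SYK, LYN and BTK are also used by myeloid cells.

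The coding bases of these motifs are shown because they separate the activating from the inhibitory members. They were read from GENCODE vM21 (GRCm38) transcripts Cd79a-201, Cd79b-201, Cd22-201 and Cd72-201, with codons counted from the start codon and tyrosine codons in capitals. The ITAM stretches cover 15 codons each, from codon 182 in Cd79a and from codon 255 in Cd79b, and 31 of their 45 bases are identical.
Cd79a ITAM: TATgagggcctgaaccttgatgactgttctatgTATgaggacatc
Cd79b ITAM: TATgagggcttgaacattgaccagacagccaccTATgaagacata
The ITIM letters were searched as I, V, L or S, any residue, tyrosine, any pair of residues, then L, V or I. The tyrosines below are codons 783, 817, 843 and 863 of the 868-residue CD22 and codons 7 and 39 of the 361-residue CD72. The letters also occur at tyrosine codon 5 of CD22 and at 95 and 118 of CD72, which are not printed.
Cd22 codon 783: gttagtTATgccatcttg
Cd22 codon 817: gtcactTACtcggtgata
Cd22 codon 843: atccatTACtcagagctg
Cd22 codon 863: gtagacTATgtgaccctc
Cd72 codon 7: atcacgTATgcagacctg
Cd72 codon 39: ctcaccTACgagaatgtg

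Expression was given as FPKM, reads scaled by transcript length and library size, so levels can be compared between genes. Absolute depth is unknown from these values, but low values step in whole reads. By the most common ratio among these steps, a single read counted for 0.901 and 0.831 times as much FPKM in the first wild-type library as in vcS5 replicates 1 and 2, and 0.847 times as much as in the second wild-type library. As a check of the labels, Stat5a had 105 and 123 FPKM in vcS5, against 13.9 and 17.01 FPKM in wild type. The related gene Stat5b had a mean of 23.9 FPKM in vcS5 and 24.3 FPKM in wild type. Its groups overlapped and its log2 change of -0.013 did not pass (adjusted p = 0.971 by limma). The check therefore rests on Stat5a alone, and which STAT5 gene the transgene carries was not tested. B cell identity of part of the cells was seen in all 4 libraries, with 212 and 170 FPKM of Ms4a1 (CD20) in vcS5 and 517 and 496 FPKM in wild type.

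All 9 genes were lower in vcS5 spleens. Their levels there were between 35.8% (Cd79a) and 44.8% (Cd72) of wild type, and the summed FPKM of the 9 was 1117 and 1095 in vcS5, against 2571 and 3181 in wild type. Each gene passed limma's test on log2(FPKM + 1) at an adjusted p under 0.05 (Benjamini-Hochberg over all rows), with adjusted p-values from 0.00882 to 0.0252, while 4.13% of all rows were called lower. The median log2 change of the 9 was -1.38, and that of all rows 0.0012. In each of the 9 both vcS5 libraries lay below both wild-type libraries, as did 27.5% of all rows. With any 1 of the 4 libraries left out, 0 of the 9 passed: the log2 changes then ran from -1.68 to -0.99 and the adjusted p-values by limma from 0.0637 to 0.151, without wild type replicate 1, wild type replicate 2, vcS5 replicate 1 or vcS5 replicate 2, and the whole table had 160, 245, 94 and 71 calls, against 1241 with all libraries.

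**Figure D1:**
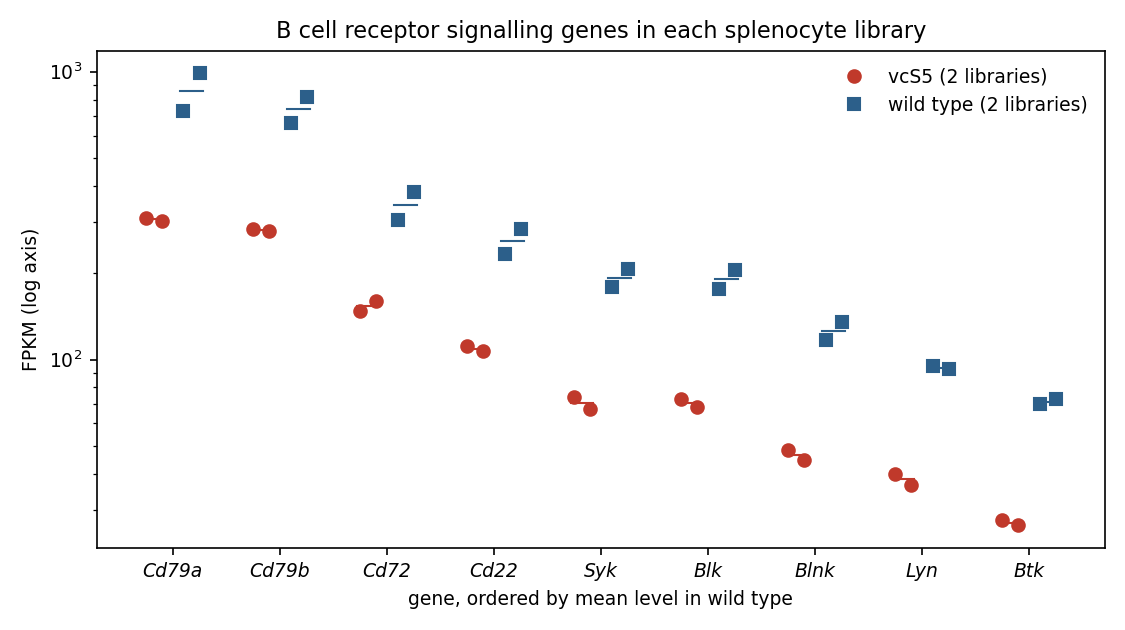
FPKM (log axis) of the 9 genes, ordered by their wild-type mean, in each library: circles are the 2 vcS5 libraries, squares the 2 wild-type libraries, and short lines the group means. Both vcS5 libraries lie below both wild-type libraries for every gene, from Cd79a at 311 and 304.0 FPKM in vcS5 down to Btk at 27.6 and 26.6 FPKM in vcS5.

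The receptor chains had the highest levels of the group. Cd79a (mm10 chromosome 7, 24897381 to 24902213, plus strand), the alpha chain of the receptor, had 311 and 304.0 FPKM in vcS5, against 730.5 and 986 FPKM in wild type. The vcS5 libraries differed little, with a coefficient of variation of 1.65%, and the wild-type libraries by 21.1%, the widest spread of the 9. The mean of Cd79a was 308 ± 5.07 FPKM in vcS5 and 858 ± 181 FPKM in wild type (SD, n = 2 each), and the log2 difference, -1.46 (SE 0.211, 95% interval -1.998 to -0.925, adjusted p = 0.0216 by limma) was the largest of the 9 in size. Cd79b (chromosome 11, 106311341 to 106314762, minus strand), the beta chain, had 284 and 280.1 FPKM in vcS5, against 665 and 819 FPKM in wild type, and its log2 change was -1.38 with an SE of 0.184 (adjusted p = 0.0177 by limma). CD79A and CD79B form a heterodimer, and the ratio of Cd79a to Cd79b FPKM was 1.10 and 1.09 in vcS5, against 1.10 and 1.204 in wild type. The same 2 chains pair with the immunoglobulin heavy chain, whose IgM gene Ighm had 6062 and 2901 FPKM in vcS5, against 5716 and 5062 FPKM in wild type. The Ighm groups overlapped and its log2 change of -0.36 did not pass (95% interval -1.46 to 0.74, adjusted p = 0.682 by limma). The Ighm value is for the whole gene and does not separate the membrane form from secreted IgM.

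The proximal kinases were lower by nearly the same factor as the receptor chains. Blk (chromosome 14, 63372836 to 63417255, minus strand), a Src family kinase of the B lineage, had 73.0 and 68.5 FPKM in vcS5, against 176 and 205 FPKM in wild type. Lyn (chromosome 4, 3678115 to 3813122, plus strand), the Src family kinase that starts ITAM phosphorylation and also phosphorylates ITIMs, had 40.1 and 36.5 FPKM in vcS5, against 94.8 and 92.8 FPKM in wild type. Lyn was the only one of the 9 that was not higher in wild type replicate 2 than in wild type replicate 1. Syk (chromosome 13, 52583173 to 52648792, plus strand), the kinase that docks on phosphorylated ITAMs, had 74.0 and 67.5 FPKM in vcS5, against 179 and 206 FPKM in wild type. Btk (chromosome X, 134542336 to 134583570, minus strand), the Tec family kinase that phosphorylates phospholipase C gamma 2, had the lowest level, 27.6 and 26.6 FPKM in vcS5, against 69.9 and 72.9 FPKM in wild type. The groups did not overlap for any of the 4 kinases, and the wild-type libraries were closest to each other for Lyn and Btk, with coefficients of variation of 1.54% and 2.94%. The log2 changes were -1.43 for Syk (SE 0.152, adjusted p = 0.0112 by limma), -1.41 for Blk (SE 0.151, adjusted p = 0.0112 by limma), -1.36 for Btk (SE 0.128, adjusted p = 0.00882 by limma) and -1.27 for Lyn (SE 0.134, adjusted p = 0.011 by limma).

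Lyn and Btk each had another, much lower row at the same locus. That of Lyn had 4.12 and 2.84 FPKM in vcS5, against 9.11 and 7.77 FPKM in wild type, and that of Btk had 4.92 and 3.53 FPKM in vcS5, against 10.2 and 9.16 FPKM in wild type. Their log2 changes of -1.09 (adjusted p = 0.040 by limma) and -1.04 (adjusted p = 0.037 by limma) ran the same way as the main rows. The library kit did not mark strand, so these rows cannot be assigned to 1 strand, and the Lyn locus also holds the antisense noncoding gene Gm26857 with overlapping exons.

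The adaptor Blnk (chromosome 19, 40928927 to 40994535, minus strand), which links SYK to BTK and phospholipase C gamma 2, had 48.6 and 44.7 FPKM in vcS5, against 117 and 135 FPKM in wild type. Its log2 change was -1.41 (SE 0.148, 95% interval -1.79 to -1.04, adjusted p = 0.0109 by limma), next to -1.43 for its kinase Syk.

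The inhibitory coreceptors had the smallest falls of the 9 genes. Cd22 (chromosome 7, 30857321 to 30880589, minus strand), a sialic acid binding lectin, had 112 and 107 FPKM in vcS5, against 233 and 283 FPKM in wild type. Its log2 change was -1.23 with an SE of 0.163 (adjusted p = 0.0175 by limma). The row carries a further gene identifier, its locus also holds Ffar1, and the antisense gene Gm29439 overlaps Cd22 exons, so its value may hold reads of more than 1 gene. Cd72 (chromosome 4, 43441939 to 43454628, minus strand), a C-type lectin, had 147 and 160.3 FPKM in vcS5, against 305 and 381 FPKM in wild type. Its log2 change was -1.15 (SE 0.178, 95% interval -1.60 to -0.69, adjusted p = 0.0252 by limma). Cd72 was the only one of the 9 that was higher in vcS5 replicate 2 than in vcS5 replicate 1, and its locus overlaps exons of Tesk1 on the other strand. Relative to the receptor, the ratio of Cd22 to Cd79b FPKM was 0.393 and 0.381 in vcS5, against 0.351 and 0.346 in wild type. The ratio of Cd72 to Cd79b was 0.518 and 0.572 in vcS5, against 0.459 and 0.465 in wild type. Both ratios were higher in the vcS5 libraries without overlap, whereas those of Syk to Cd79b (0.261 and 0.241 in vcS5, 0.269 and 0.252 in wild type) and Lyn to Cd79b (0.141 and 0.130 in vcS5, 0.143 and 0.113 in wild type) overlapped. The ratio of Cd79a to Cd79b also separated the groups, narrowly, at 1.096 in vcS5 replicate 1 against 1.099 in wild type replicate 1. Separation alone says little, as 27.5% of all rows had both vcS5 libraries below both wild-type libraries. The ratios to Cd79b were not tested, and the 95% intervals of the log2 changes of Cd72 and Cd79a overlap.

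The order of levels was Cd79a, Cd79b, Cd72, Cd22, Syk, Blk, Blnk, Lyn and Btk by the mean of either group. Syk and Blk overlapped in both groups, Cd79a and Cd79b overlapped in wild type, and all other neighbours in that order were separated by both libraries of a group. The authors' deposited table gives log2 fold changes of vcS5 over wild type from -1.48 for Cd79a to -1.16 for Cd72, and a q-value of 0.000995 for each of the 9 main rows. A q below 0.05 with a lower vcS5 value was given to all 9, and to 6.14% of all rows, by the authors' deposited table.

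In a mixed cell suspension, fewer B cells and less of a transcript per B cell cannot be told apart. Other B cell markers were therefore set beside the 9 genes. Of 17 measured, none of them among the 9, 16 were lower and 0 higher by limma, with a median log2 change of -1.31, and their summed FPKM was 1776 and 1696 in vcS5, against 3897 and 4461 in wild type. The marker that did not pass was Ebf1, at 29.2 and 14.9 FPKM in vcS5, against 49.5 and 63.1 FPKM in wild type (adjusted p = 0.0711 by limma).

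When each library was expressed relative to the mean of these 17 markers, no difference was detected for any of the 9 genes. Their log2 changes on that scale ran from -0.17 for Cd79a to 0.15 for Cd72, with adjusted p-values by limma from 0.515 to 0.923, and 0 of 9 had an unadjusted p under 0.05. The 95% intervals together span -0.71 to 0.64, so differences from the other B cell markers within that span could not be resolved by these libraries. On this scale 0.295% of all rows were called lower and 88.3% higher, since subtracting the markers moves every row up by 1.29. Both the members and the markers were chosen as B cell genes with results of these data known.

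**Figure D2:**
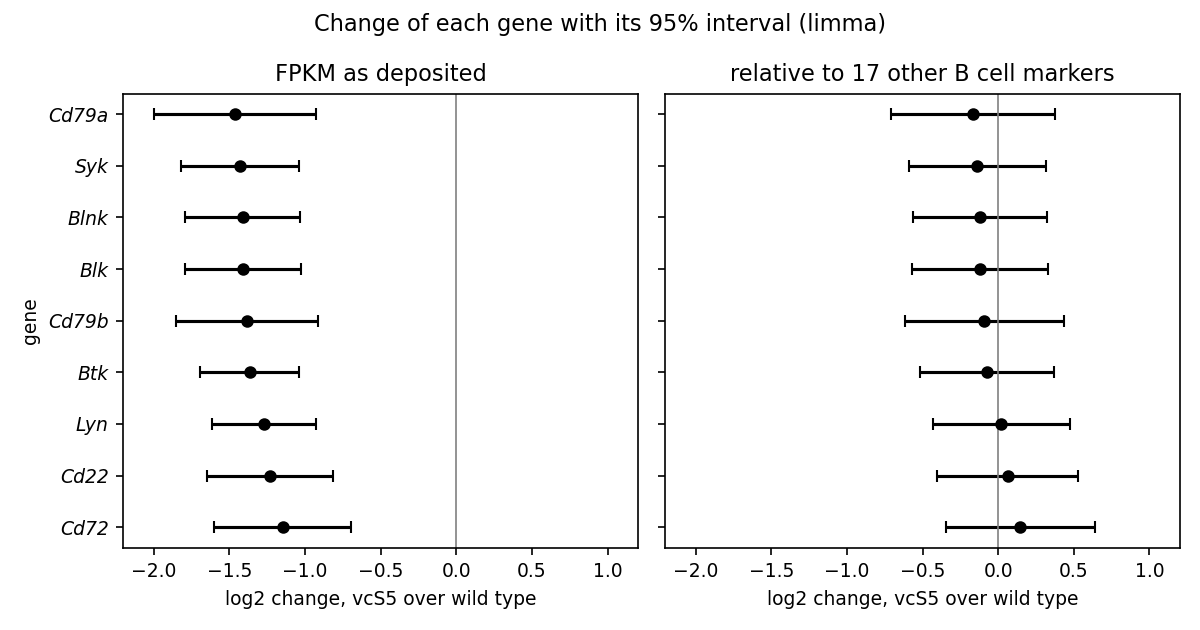
Log2 change of vcS5 over wild type for each of the 9 genes, with its 95% interval by limma (n = 2 each), from FPKM as deposited (left) and relative to the mean of 17 other B cell markers (right). All 9 intervals on the left lie below 0, and all 9 on the right include 0.

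Markers of other cell types were read in the same libraries. T cell markers had 10 of 16 higher and 1, Cd4, lower, with 4.59% of all rows called higher, and summed to 3523 and 4463 FPKM in vcS5, against 1114 and 1491 FPKM in wild type. Monocyte and macrophage markers had 1 of 13 lower, Lyz2, and summed to 271 and 344 FPKM in vcS5, against 691 and 499 FPKM in wild type. All 13 had a log2 change below 0, with a median of -0.48. Neutrophil markers had 1 of 14 lower, Csf3r, and summed to 1064 and 1027 FPKM in vcS5, against 6524 and 1975 FPKM in wild type. All 14 had a log2 change below 0, with a median of -1.48, and the wild-type libraries differed widely. No measured marker of these lists was listed at 0. Between wild type replicates 1 and 2 the neutrophil sum was 6524 and 1975 FPKM, and the B cell marker sum 3897 and 4461 FPKM. Syk and Btk were not higher in replicate 1, and Lyn had 94.8 and 92.8 FPKM. With both sums differing between 2 single libraries, this comparison cannot assign the levels of these kinases to a cell type. The part of T cells and myeloid cells in the changes of the 9 genes was not tested.

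The T cell receptor uses a parallel set of proteins, and these were set against the B cell ones. The ratio of Syk to Zap70, the SYK family kinase of T cells, was 1.07 and 0.83 in vcS5, against 6.03 and 6.04 in wild type. The ratio of Blnk to Lcp2, which encodes the adaptor SLP-76, was 0.253 and 0.258 in vcS5, against 1.41 and 1.19 in wild type. Both ratios separated the vcS5 from the wild-type libraries, and Blnk was the more abundant partner in wild type but not in vcS5.

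For Cd79a over Cd3e, a signalling chain of the T cell receptor, the ratio was 1.65 and 1.61 in vcS5, against 10.9 and 14.0 in wild type. For Blk over Fyn it was 0.366 and 0.334 in vcS5, against 1.96 and 1.75 in wild type, and for Lyn over Lck 0.0981 and 0.0574 in vcS5, against 0.641 and 0.411 in wild type. Fyn and Lck are Src family kinases used by the T cell receptor. Of these 5 counterparts Cd3e, Zap70 and Fyn rose, with log2 changes of 1.44, 1.21 and 0.97 (adjusted p = 0.00852, 0.0168 and 0.0371 by limma). Lck and Lcp2 had 1.48 and 0.91 and did not pass (adjusted p = 0.0522 and 0.0568 by limma).

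**Figure D3:**
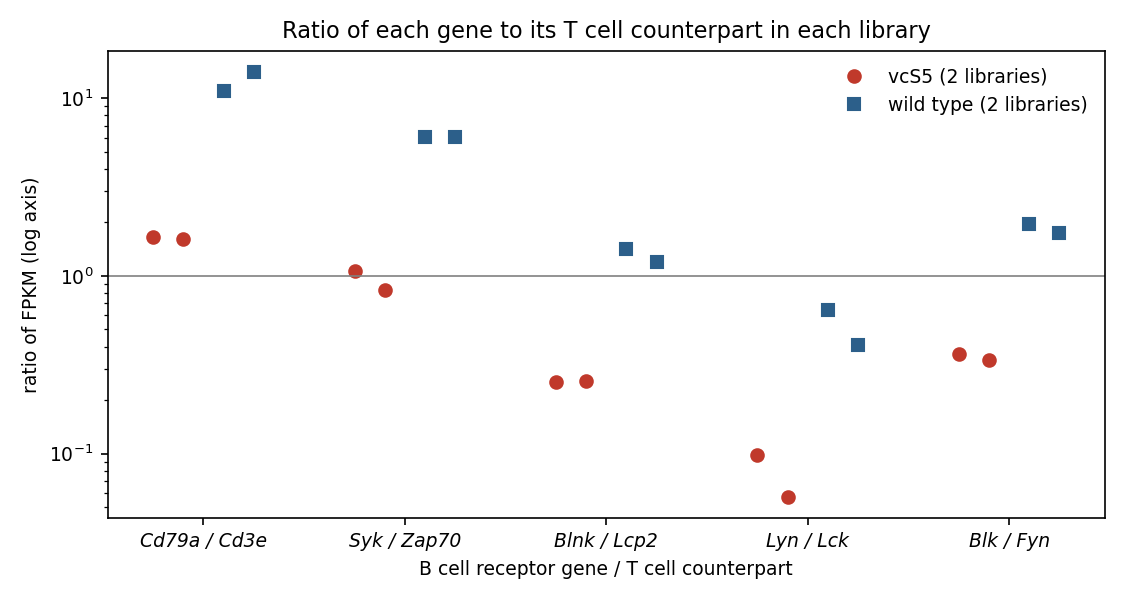
Ratio of FPKM (log axis) of 5 B cell receptor genes to a T cell counterpart in each library, with circles for the 2 vcS5 and squares for the 2 wild-type libraries and a line at equal levels. Every vcS5 ratio lies below both wild-type ratios, with Syk over Zap70 at 1.07 and 0.83 in vcS5 and 6.03 and 6.04 in wild type.

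The other genes of the pathway were read from 9 lists with 104 entries, of which 98 were measured. Of these 24 were lower and 11 higher by limma and 63 did not pass, with a median log2 change of -0.21. The lists hold 8 of the B cell markers used above, and leaving out any 1 library left at most 1 lower and 2 higher.

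Some coreceptors and inhibitory receptors were lower and others did not pass. Of 4 genes described here from the coreceptor complex, which lowers the threshold of receptor signalling, 2 were lower: Cr2 (-1.64), the complement receptor, and Cd81 (-1.35), the tetraspanin partner. Ifitm3 (-0.94, adjusted p = 0.0753 by limma) and Ifitm1 (1.68, adjusted p = 0.157 by limma) did not pass. A list named inhibitory receptors and coreceptors had 8 measured genes, of which some, such as Fcrl1 and Fcrla, are not inhibitory receptors. Of these 8 genes 4 were lower: Fcrl5 (-1.58), Fcrl1 (-1.34), the sialic acid receptor Siglecg (-1.33) and Fcrla (-1.27). Cd300a, Lilrb4 and Cd5 had log2 changes of -0.80, -0.32 and 0.59 and did not pass. Fcgr2b, the inhibitory Fc receptor that B cells share with macrophages, had 95.1 and 83.2 FPKM in vcS5, against 94.1 and 101 FPKM in wild type. Its groups overlapped and its log2 change of -0.13 did not pass (95% interval -0.50 to 0.24, adjusted p = 0.662 by limma). Relative to the 17 B cell markers its log2 change was 1.16 (SE 0.202, adjusted p = 4.41e-04 by limma), on a scale where every row moves up by 1.29 and 88.3% of all rows were called higher.

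Among adaptors and exchange factors 4 of 16 were lower and 0 higher. They were Lat2 (-1.34), a membrane adaptor of B and myeloid cells, Bank1 (-1.33), a B cell scaffold, Rasgrp3 (-1.11), a Ras exchange factor, and Pik3ap1 (-0.97), the adaptor BCAP that recruits PI3 kinase. Grb2 and Vav1, which many cell types use, had log2 changes of -0.45 and 0.09 and did not pass.

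The lipid signalling step moved in both directions. Plcg2, the phospholipase downstream of BTK and BLNK in B cells, had 30.4 and 30.4 FPKM in vcS5, against 64.2 and 80.4 FPKM in wild type (log2 change -1.22, SE 0.161, adjusted p = 0.0173 by limma). Plcg1, its paralog in T cells, had 82.1 and 98.2 FPKM in vcS5, against 39.3 and 45.3 FPKM in wild type (log2 change 1.07, SE 0.163, adjusted p = 0.0242 by limma). Pik3r5 (1.48) and Pik3cd (0.99), subunits of leukocyte PI3 kinases, were also higher. The fourth riser, Pdk1 (0.77), is pyruvate dehydrogenase kinase under this symbol and not a lipid signalling gene.

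Genes further downstream were read in 2 lists. In the arm that leads to NF-kappaB 2 of 14 were lower, the NF-kappaB subunit Rel (-0.86) and the kinase Prkcd (-0.82); with each library scaled to the same FPKM sum 0 of 14 were lower, and with quantile normalization 4. Prkcb, the protein kinase C isoform of this arm in B cells, had -0.67 and did not pass (adjusted p = 0.0626 by limma). Of 11 calcium and NFAT genes 1 was higher, Nfatc2 (0.83). Of 11 phosphatases and negative regulators Sh2b3 (-0.81) was lower and Ptpn22 (1.26) higher. Ptpn6, which encodes the SHP-1 that CD22 and CD72 recruit, had 822 and 761 FPKM in vcS5, against 825 and 1048 FPKM in wild type, and did not pass (log2 change -0.23, adjusted p = 0.569 by limma).

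Other Src and Tec family kinases, with Zap70, moved in both directions. Txk (2.04), Yes1 (1.90), Zap70 (1.21) and Fyn (0.97) were higher, and Fgr (-0.94) and Tec (-0.68) were lower. Txk and Zap70 serve T cells, and Fgr is best known from myeloid cells. Of the 9 measured kinases 3 were lower as deposited, and 1 with each library scaled to the same FPKM sum.

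**Figure D4:**
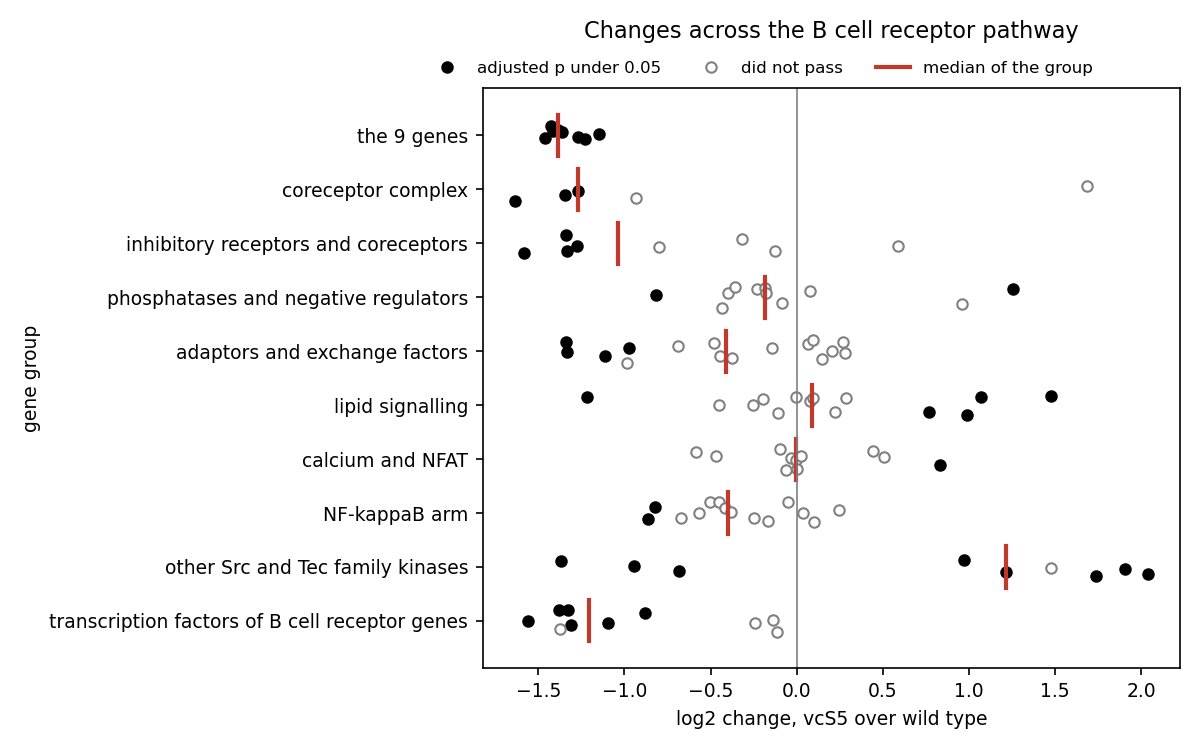
Log2 change of vcS5 over wild type for the 9 genes and for 9 lists of other pathway genes, with filled points for genes at an adjusted p under 0.05 by limma, open points for the rest, and red bars for the median of each group. The 9 genes have a median of -1.38, the phosphatases and negative regulators -0.19, the lipid signalling genes 0.09 and the other Src and Tec family kinases 1.21.

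Transcription factors that drive B cell receptor genes were lower in 6 of 10 and higher in 0. Pax5 (-1.56), which activates Cd79a, and Spib (-1.38), Sfpi1 (-1.33), which encodes PU.1, and Pou2af1 (-1.31), which encodes the coactivator OCA-B, fell most among those that passed. Ebf1 had a log2 change of -1.38 and did not pass (adjusted p = 0.0711 by limma). Ets1, Foxo1 and Tcf3, which other lymphocytes also use, had -0.11, -0.14 and -0.24 and did not pass.

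Promoter windows of the genes that moved together were searched on both strands for motifs of such factors. RefSeq windows (GRCm38.p6, 250 bases before to 50 after a start site) were found for 6 of the 9 genes, Cd79a, Cd22, Cd72, Syk, Blnk and Btk, 7 windows in all. The palindromic EBF1 motif was in 1 of the 7 (Cd22) and in 0.904% of all 32851 windows. The octamer ATGCAAAT was in 1 (Blnk) and in 1.74% of all windows, and the PU.1 motif GAGGAAGT in 1 (Cd72) and in 3.2%. The STAT motif TTCNNNGAA was in 0 of the 7 and in 8.3% of all windows. No window held more than 1 match. The 3 stretches are shown with the match in capitals, 5′ to 3′ along the gene, and the octamer and PU.1 matches lie on the opposite strand.
Cd22 (chr7:30879043-30879102, minus strand, 74 to 15 bases before the start site): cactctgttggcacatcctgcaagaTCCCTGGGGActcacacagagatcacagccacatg
Blnk (chr19:40994319-40994376, minus strand, 155 to 98 bases before the start site): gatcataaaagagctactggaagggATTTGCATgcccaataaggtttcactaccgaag
Cd72 (chr4:43454643-43454700, minus strand, 74 to 17 bases before the start site): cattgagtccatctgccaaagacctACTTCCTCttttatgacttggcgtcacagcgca
These matches are descriptions of the letters and not of binding.

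The profile most like the mean of the 9 genes was sought among 8407 other rows with a symbol and a mean of at least 5 FPKM, by the root mean square difference of centred log2 values over the 4 libraries. The closest were Fcrl1 (0.0119), Pxdc1 (0.028), Ly86 (0.0301), Bank1 (0.0327) and H2-Aa (0.0329). The 9 genes themselves lay between 0.0354 (Blk) and 0.124 (Cd72) from their mean. Fcrl1 had 40.1 and 37.6 FPKM in vcS5, against 92.3 and 108 FPKM in wild type. With 4 libraries in 2 groups, this likeness mostly restates the group difference and the spread between the 2 libraries of a group.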

How the data were processed

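Splenocyte RNA from 2 vcS5 and 2 wild-type spleen samples was sequenced as 50 bp single-end reads, per the labels, from a kit (TruSeq RNA v2) that does not keep strand. The authors deposited 1 table with FPKM for each library, per the file headers. The submitters' processing notes name mm10, TopHat2 2.0.9, Bowtie2 2.1.0, Cufflinks and Cuffdiff 2.1.1, without settings. The deposited table also holds the authors' log2 fold change, p-value and q-value. Read numbers are lost in FPKM, so no counting interval is given.

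Values were fitted as log2(FPKM + 1) over all 14226 rows by limma (version 3.58.1, under R 4.3.3) using its variance trend, two-sided, with Benjamini-Hochberg adjustment at 0.05. The filter of a mean of at least 1 FPKM removed 0 rows. Fold changes on this scale understate changes of low genes. A further fit subtracted, per library, the mean log2 value of 17 B cell markers. The highest row stands for a gene with several. The procedure was also run on simulated data with independent noise in each library, and that outcome is not reported here. The named genes are the 9 members, all measured coreceptors and inhibitory receptors, up to 4 called genes per other list, the T cell counterparts and the 5 nearest profiles. Ebf1, Ms4a1, Ighm, Lyz2, Csf3r, Grb2, Vav1, Prkcb, Ptpn6, Ets1, Foxo1, Tcf3, Stat5a, Stat5b, Cd4, Pdk1, Fgr and Tec were added after their values were seen or as background. Values of some list genes are not reported here. Members and lists were chosen with earlier results of these data known. The alternatives were other pseudocounts, filters and scalings, no variance trend, a replicate block and each library left out.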

Additional observations from a re-analysis of the deposited data

How the results depend on the processing

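In the 9 alternatives that keep all 4 libraries, all 9 genes remained lower and past the threshold by limma, with log2 changes from -1.58 to -0.95 and adjusted p-values from 0.00759 to 0.0348. The alternative without a filter repeats the main fit, since the filter removed 0 rows. Scaling each library to the same FPKM sum moved the median of all rows to 0.169 and the calls to 967 higher and 402 lower (29.4% lower), against 653 and 588 (47.4% lower) as deposited; Cd79a changed by -1.27 and Cd72 by -0.95 there. With the replicate number as a replicate block, 9 of 9 genes and 1028 rows passed and Cd79a had an adjusted p of 0.0348; the deviations of same-numbered libraries correlated at 0.235 over 9822 rows, but with 2 pairs the numbers do not show a pairing, and the block changed no call of the 9.

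With 1 library left out, 0 of the 9 genes passed, and the lone library was assumed to vary like the other group. The log2 change then ran from -1.68 to -1.25 for Cd79a, -1.53 to -1.23 for Cd79b, -1.52 to -1.31 for Blk, -1.34 to -1.20 for Lyn, -1.53 to -1.33 for Syk, -1.39 to -1.33 for Btk, -1.52 to -1.31 for Blnk, -1.37 to -1.09 for Cd22 and -1.30 to -0.99 for Cd72. The whole table then had 71 to 245 calls, and of the pathway genes 0 to 1 were lower and 0 to 2 higher. Relative to the B cell markers 0 of 9 passed in the alternatives that keep all 4 libraries. On that scale the alternatives without a filter and with median centring repeat the main fit. With 1 library left out the log2 change relative to the markers ran from -0.10 to 0.14 for Lyn and from -0.15 to 0.0032 for Btk. The 2 libraries a group and the unknown absolute depth limit the precision of every value.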
